A study of Mus musculus with 18 samples.

Results

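AMP-activated protein kinase (AMPK) and its upstream kinase LKB1 were described across liver, epididymal white adipose tissue (eWAT) and quadriceps muscle of mice on a high-salt diet. The 8 members were the 7 AMPK subunit genes (Prkaa1, Prkaa2, Prkab1, Prkab2, Prkag1, Prkag2 and Prkag3) and Stk11, the gene of LKB1. They were taken by name from 21899 genes with an FPKM (fragments per kilobase of exon, scaled to library size) in each of 18 libraries, and all 8 were listed. The mice were wild-type male C57BL/6 animals aged 18 weeks. The HSD group had eaten high-salt chow and drunk saline for 12 weeks, and the CON group had been given chow and tap water. Each tissue had 3 CON and 3 HSD libraries, 1 library per mouse and tissue, from 8 mice in all. The same 6 mice gave the eWAT and the muscle libraries, and 4 mice gave all 3 tissues, so tissues were not independent samples. Each library is a piece of whole tissue, in which fewer cells of a type and less RNA per cell cannot be told apart.

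AMPK is a heterotrimer that is switched on when cellular AMP and ADP rise. Its α subunit carries the kinase domain, its β subunit is the scaffold and binds glycogen, and its γ subunit binds the adenine nucleotides. LKB1, held active by a STRAD pseudokinase and the MO25 adaptor, phosphorylates the α subunit. In cells without LKB1 the calcium-dependent kinase CaMKK2 can do so. Active AMPK restrains fat and sterol synthesis and promotes fat oxidation and glucose uptake, in part by phosphorylating the acetyl-CoA carboxylases.

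Between 7628071 and 16637489 fragments per library were recovered from the FPKM values. The labelled tissues carried their markers: the 12 hepatocyte markers summed to between 17280 and 89235 FPKM in liver, the 10 adipocyte markers to between 7423 and 24055 FPKM in eWAT, and the 15 skeletal muscle markers to between 56474 and 70942 FPKM in muscle. Liver CON replicate 2 stood apart: skeletal muscle markers there had a median of 8.79% of their mean level in CON muscle, while in no other liver library did any of these markers pass 0.0630%. eWAT HSD replicate 2 held 19951 FPKM of 12 epididymal epithelium markers, against at most 13.8 FPKM in the other eWAT libraries, and 692 FPKM of Adipoq against at least 1937 FPKM. Mitochondrially encoded genes took 15.4% to 60.8% of liver fragments and at most 16.5% elsewhere. Fits with these genes left out are given below as an alternative. Whether the mitochondrial share or these markers caused any result was not tested.

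The isoform that made up most of each AMPK family differed between tissues, and the shares are given first because they do not depend on how a library is scaled. In muscle, 90.3% ± 1.78 (SD, n = 6) of the α FPKM came from Prkaa2, 97.1% ± 0.512 of the β FPKM from Prkab2 and 94.2% ± 1.52 of the γ FPKM from Prkag3. In eWAT, Prkaa1 made up 88.6% ± 4.52 of α, Prkab1 65.3% ± 6.30 of β and Prkag2 70.8% ± 4.82 of γ. Liver was mixed for α, with 53.7% ± 10.1 from Prkaa2. It was mostly Prkab1 for β, with 92.7% ± 8.38, and mostly Prkag2 for γ, with 60.5% ± 8.34, beside 36.4% ± 7.65 from Prkag1. In muscle 1 isoform therefore held at least 87.6% of the FPKM of every family in each of its 6 libraries. The γ shares include Prkag1, whose values are uncertain for a reason given below, so the γ shares are uncertain too.

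The 3 muscle isoforms have promoters of unlike composition, shown here because these genes share their highest level in muscle. RefSeq promoter windows of 300 bases around the start (GRCm38.p6, 5′ to 3′ on the gene's strand) were found for all 8 members. Capitals mark CAGCTG, an E-box of the kind bound by the MyoD family of muscle factors. The Prkag3 window lies at chr1:74748906-74749205 (minus strand), the Prkab2 window at chr3:97657962-97658261 (plus strand) and the Prkaa2 window at chr4:105109849-105110148 (minus strand).
Prkag3: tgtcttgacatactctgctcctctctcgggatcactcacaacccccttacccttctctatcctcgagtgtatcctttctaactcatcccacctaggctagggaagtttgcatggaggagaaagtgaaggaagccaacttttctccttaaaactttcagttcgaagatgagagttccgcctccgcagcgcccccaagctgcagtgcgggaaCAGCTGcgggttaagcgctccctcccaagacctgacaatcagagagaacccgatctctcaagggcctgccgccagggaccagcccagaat
Prkab2: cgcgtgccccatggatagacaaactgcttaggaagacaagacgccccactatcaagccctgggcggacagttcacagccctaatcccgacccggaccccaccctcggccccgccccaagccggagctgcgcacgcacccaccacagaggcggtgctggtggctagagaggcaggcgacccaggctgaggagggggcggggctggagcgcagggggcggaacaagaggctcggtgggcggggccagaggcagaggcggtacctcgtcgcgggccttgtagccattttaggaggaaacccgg
Prkaa2: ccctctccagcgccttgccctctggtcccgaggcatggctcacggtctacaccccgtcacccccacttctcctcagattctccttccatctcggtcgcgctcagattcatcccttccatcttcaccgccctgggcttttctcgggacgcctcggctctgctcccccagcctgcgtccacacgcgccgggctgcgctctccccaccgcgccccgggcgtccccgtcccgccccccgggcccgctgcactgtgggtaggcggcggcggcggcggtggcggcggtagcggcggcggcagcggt
CAGCTG, which reads the same on both strands, occurred 1 time in the Prkag3 window and in none of the other windows of the members. It was present in 16.3% of 32851 promoter windows. The broader pattern CANNTG, which includes CAGCTG, was absent from the Prkab2 and Prkaa2 windows and present in 72.3% of all windows. The observed over expected CpG ratio was 0.52 for Prkag3, 0.67 for Prkab2 and 0.93 for Prkaa2, against a median of 0.38 over all windows. These letters describe the windows only and do not show binding.

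**Figure D1:**
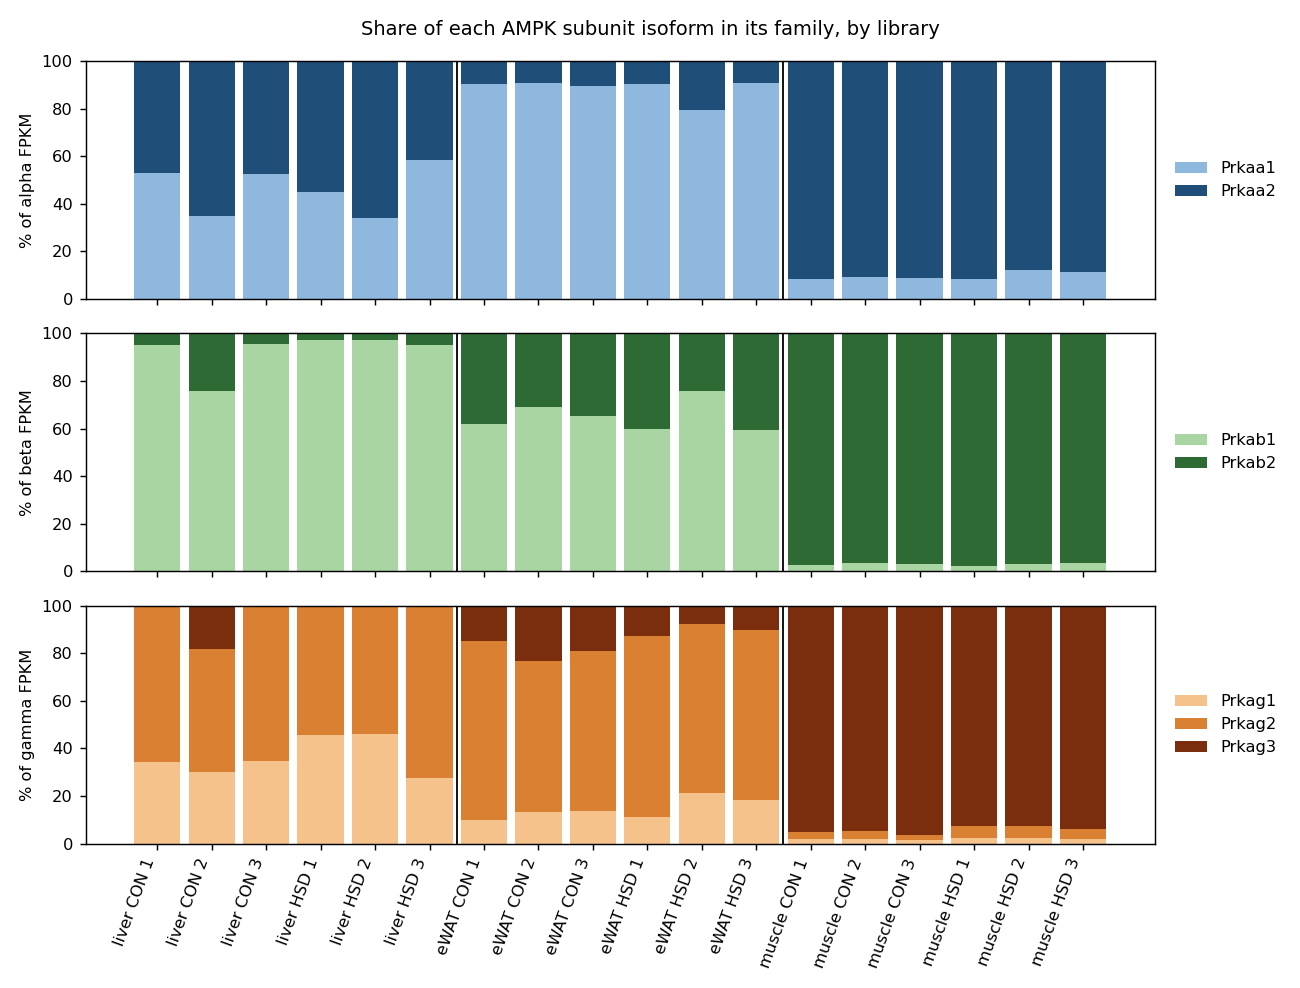
Stacked bars give the percentage of the α, β or γ family FPKM held by each isoform in each of the 18 libraries, ordered by tissue and diet. Prkaa2, Prkab2 and Prkag3 fill most of every muscle bar (at least 87.6%), Prkaa1 and Prkag2 fill most of the eWAT bars, and Prkab1 fills most of the liver β bars.

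All 15 comparisons of a share between a pair of tissues passed the test, which treats the libraries as independent although tissues share mice, and pools the diets. The exact permutation test (2-sided, 6 against 6 libraries, smallest p it can give 0.00216) had adjusted p between 0.00271 and 0.0346 over the 15. Libraries of the pair did not overlap in 12 of them. The 3 that overlapped were eWAT against liver: Prkab2 (34.7% against 7.30%), Prkag2 (70.8% against 60.5%) and Prkag3 (14.6% against 3.06%). In Prkab2 and Prkag3 the high liver library was CON replicate 2, with 24.3% and 18.4%, whereas the other 5 liver libraries held at most 4.75% and 0%. Within CON alone 13 of the 15 pairs did not overlap, and within HSD alone 14 did not. The γ comparisons among the 15 share the uncertainty of the Prkag1 values.

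The α subunits, which carry the kinase domain, ran in opposite directions between eWAT and muscle. Prkaa1 (α1, chr15:5143861-5181899 in GRCm38) read 25.1, 23.0 and 21.8 FPKM in eWAT CON and 23.5, 12.7 and 25.8 FPKM in eWAT HSD. In muscle it read 5.01, 5.86 and 4.94 FPKM in CON and 4.73, 6.25 and 4.85 FPKM in HSD, and in liver 3.77, 2.42 and 2.49 FPKM in CON and 3.11, 2.67 and 3.12 FPKM in HSD. The order eWAT, muscle, liver held with no overlap between any pair of tissues. Prkaa2 (α2, chr4:105029874-105109890) read 55.2, 58.5 and 51.3 FPKM in muscle CON and 52.9, 44.3 and 37.2 FPKM in muscle HSD. It stayed between 2.22 and 5.19 FPKM in liver and between 2.30 and 3.30 FPKM in eWAT, and these overlapped. The muscle mean of 49.9 FPKM was 14.0-fold the liver mean and 18.8-fold the eWAT mean. Summed over both genes, α reached 55.2 ± 7.88 FPKM in muscle, 24.6 ± 4.50 FPKM in eWAT and 6.48 ± 1.19 FPKM in liver (SD, n = 6).

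The β subunits, the scaffolds, included the member with the highest FPKM in muscle. Prkab2 (β2, chr3:97658193-97673812) read 137, 111 and 114 FPKM in muscle CON and 143, 95.2 and 102 FPKM in muscle HSD. In eWAT it read 6.46, 5.58 and 6.05 FPKM in CON and 6.57, 7.16 and 6.90 FPKM in HSD. In liver it read 0.412, 2.40 and 0.322 FPKM in CON and 0.226, 0.284 and 0.666 FPKM in HSD. The order muscle, eWAT, liver held with no overlap, and the highest liver value was the library with muscle markers. Prkab1 (β1, chr5:116013586-116024508) was lowest in muscle: 3.19 to 3.83 FPKM, below every library of the other tissues. It ranged from 7.02 to 13.4 FPKM in liver and from 9.85 to 12.5 FPKM in eWAT apart from 22.5 FPKM in HSD replicate 2, the library with epididymal markers, so liver and eWAT overlapped.

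Of the γ subunits, which sense the nucleotides, Prkag3 was high in muscle and low or at 0 elsewhere. Prkag3 (γ3, chr1:74738922-74749221), known from fast-twitch muscle, read 65.1, 52.8 and 72.3 FPKM in muscle CON and 35.7, 33.3 and 49.1 FPKM in muscle HSD. In eWAT it read 2.37, 4.16 and 3.07 FPKM in CON and 2.11, 1.04 and 1.64 FPKM in HSD, from 47 to 232 fragments. In liver 5 of 6 libraries had 0 fragments, and CON replicate 2, the library with muscle markers, had 40 fragments or 0.934 FPKM. A count of 0 allowed up to 0.0782 to 0.107 FPKM (3 fragments per library, counting error only), so Prkag3 was at least 412-fold higher in muscle HSD than in liver HSD. Prkag2 (γ2, chr5:24862744-25100642) was highest in eWAT, with 9.71 to 12.6 FPKM, then in liver with 2.35 to 4.89 FPKM and in muscle with 1.74 to 2.05 FPKM, with no overlap. Prkag1 (γ1, chr15:98812797-98831521) was low in all tissues, from 0.864 to 1.35 FPKM in muscle, 1.45 to 2.69 FPKM in liver and 1.63 to 2.92 FPKM in eWAT. Muscle lay below both other tissues for Prkag1, while liver and eWAT overlapped. Of its 2175 exon bases, 43.7% also lie in the antisense gene B130046B21Rik. Whether counting used strand is not given in the sources used here, so Prkag1 values, and the γ shares that include them, are uncertain.

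Stk11 (LKB1, chr10:80115803-80130682) lay between 18.1 and 34.7 FPKM in every library, on the deposited scale. It read 22.4, 21.5 and 18.1 FPKM in liver CON and 21.5, 23.0 and 24.2 FPKM in liver HSD. It read 29.7, 28.5 and 28.2 FPKM in eWAT CON and 32.1, 25.6 and 31.3 FPKM in eWAT HSD. In muscle it read 27.8, 23.9 and 24.4 FPKM in CON and 32.2, 25.6 and 34.7 FPKM in HSD. Liver lay below eWAT without overlap, at 21.8 against 29.2 FPKM on average, and muscle overlapped both.

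**Figure D2:**
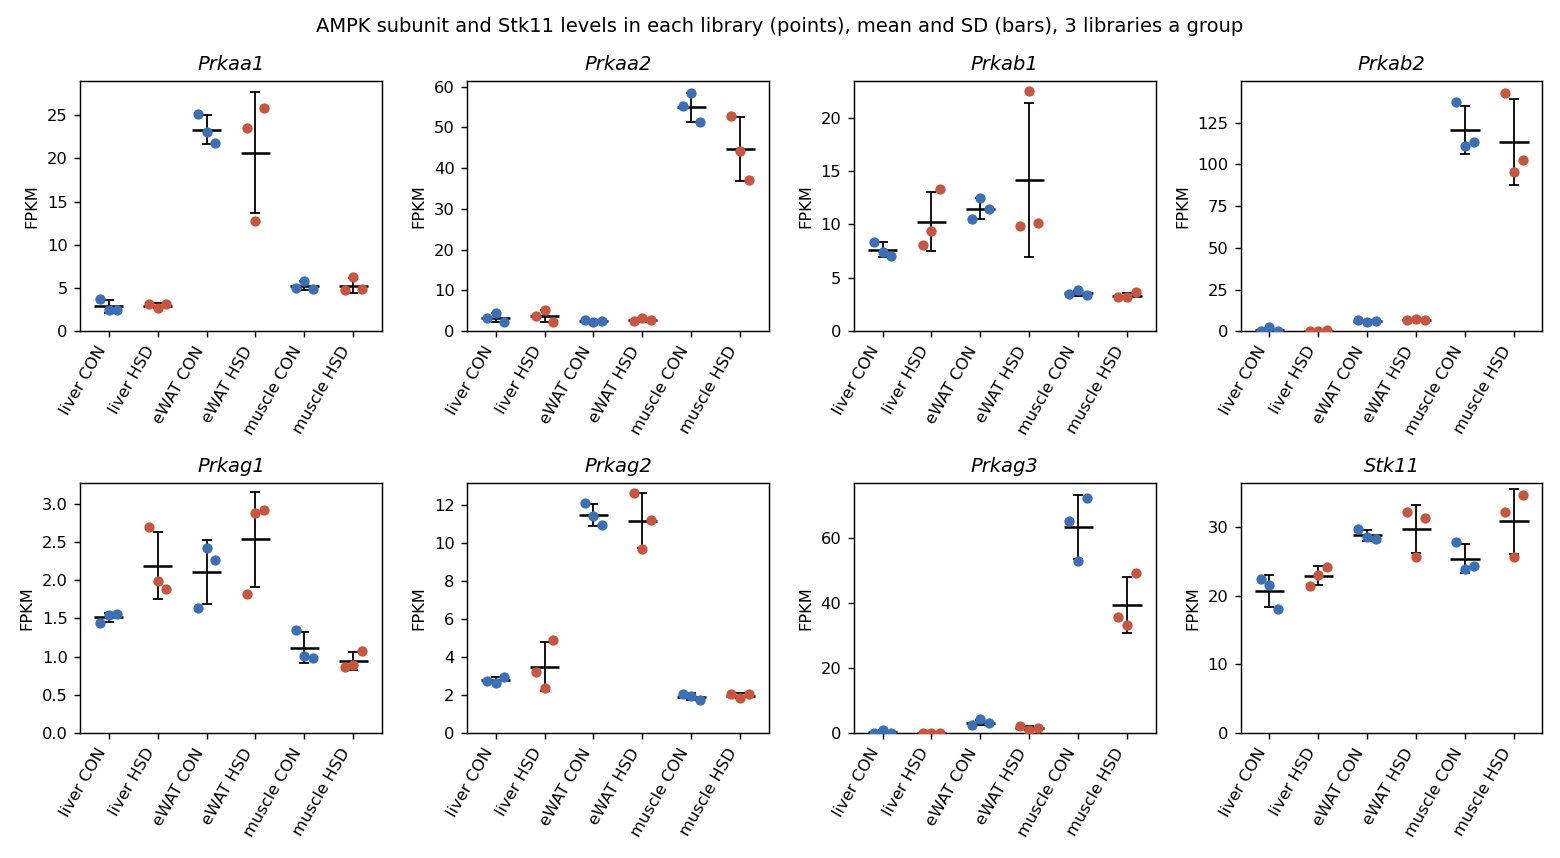
FPKM of the 8 members by tissue and diet, on linear axes from 0, with 1 point per library (blue CON, red HSD) and a bar at the mean ± SD of 3 libraries. Prkaa2, Prkab2 and Prkag3 stand far above the other tissues in muscle, Prkaa1 and Prkag2 in eWAT, and Stk11 lies between 18.1 and 34.7 FPKM everywhere.

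In a single limma fit of all 18 libraries (log2(FPKM + 0.5), mouse as random block), a gene was called when its adjusted p (Benjamini-Hochberg) was below 0.05, given a log2 fold change of 1 or more in either direction. Between CON muscle and CON liver, 3 of 8 members were called, all higher in muscle, where 48.4% of 13067 genes were called. They were Prkab2 with a log2 fold change of 6.54 ± 0.35 (SE), Prkag3 with 6.47 ± 0.33 and Prkaa2 with 3.89 ± 0.25, the largest adjusted p being 2.37e-09. The Prkag3 value depends on the pseudocount, since 2 of 3 CON livers were at 0. Without liver CON replicate 2, Prkab2 was at 7.12 and Prkag3 at 6.99. After median-ratio scaling Prkab1 (-1.63) and Prkag2 (-1.02) were called too, both lower in muscle, and so they were with mitochondrially encoded genes left out (-1.72 and -1.12). Between HSD muscle and HSD liver the same 3 and Prkab1 (-1.47 ± 0.25, lower in muscle) were called, where 6021 of 13067 genes were. Between CON muscle and CON eWAT, 6 of 8 were called against 53.3% of all genes. Prkaa2 (4.21 ± 0.25), Prkab2 (4.21 ± 0.35) and Prkag3 (4.13 ± 0.33) were higher in muscle. Prkag2 fell by 2.31 ± 0.18, Prkaa1 fell by 2.05 ± 0.22 and Prkab1 fell by 1.56 ± 0.25 on the log2 scale from eWAT to muscle. Between HSD muscle and HSD eWAT the same 6 and Prkag1 (-1.06 ± 0.18, lower in muscle) were called, where 7762 of 13067 genes were. Between CON eWAT and CON liver, 4 of 8 were called against 67.4% of all genes, all higher in eWAT. These were Prkaa1 (2.83 ± 0.23), Prkag3 (2.35 ± 0.33), Prkab2 (2.33 ± 0.35) and Prkag2 (1.88 ± 0.18). Without liver CON replicate 2, Prkab2 was at 2.91 and Prkag3 at 2.86. With mitochondrially encoded genes left out, Prkaa1 was at 1.89 and Prkag2 at 0.92, no longer called. After median-ratio scaling Prkag2 (0.39) lost its call, and Prkaa2 (-1.69, against -0.33 as deposited) and Stk11 (-1.13) were called lower in eWAT. Over all genes tested, the log2 fold changes had medians of 0.48, -0.91 and 1.33 in these CON contrasts, and of 0.06, -0.11 and 0.01 after median-ratio scaling. The calls split into 4432 higher and 1888 lower, 1026 and 5938, and 7895 and 917, and after that scaling into 3083 and 2958, 2231 and 2513, and 2644 and 2574. The members called between CON tissues kept their direction under each of the 32 alternatives. The calls of Prkab1 between muscle and eWAT, Prkag2 between eWAT and liver and Prkab2 between eWAT and liver were lost under 3, 4 and 1 of them. Some members not called between CON tissues as deposited turned after median-ratio scaling. Stk11 turned from 0.29 to -0.35 between muscle and liver, from -0.18 to 0.78 between muscle and eWAT and from 0.48 to -1.13 between eWAT and liver. Likewise Prkab1 (0.56 to -0.99) and Prkag1 (0.36 to -0.91) turned between eWAT and liver, and Prkag1 (-0.69 to 0.05) between muscle and eWAT, so the order of these FPKM levels depends on the scaling.

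The muscle isoforms were also set beside the skeletal muscle markers in liver and eWAT. In the eWAT libraries the 15 markers had medians of 0.00560% to 0.0376% of their CON muscle level and none passed 0.190%. In these same libraries Prkag3 stood at 1.64% to 6.56%, Prkab2 at 4.63% to 5.94% and Prkaa2 at 4.19% to 5.99% of CON muscle. The eWAT levels of the muscle isoforms were thus higher, relative to muscle, than those of any of the 15 markers. In liver CON replicate 2 the markers ran from 0% to 42.2%, with a median of 8.79%. The 0% was Tnnc2, which was at 0 in every liver and eWAT library and read at most 2.55 FPKM in muscle. Prkab2 was at 1.99% and Prkag3 at 1.47% of muscle there, both below the marker median. Prkag3 lay below each of the markers other than Tnnc2, and Prkab2 below each of these but Myh4. Prkaa2 was at 8.15% there and at 4.03% to 9.43% in the other liver libraries, so the library with muscle markers lay within the range of the others.

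**Figure D3:**
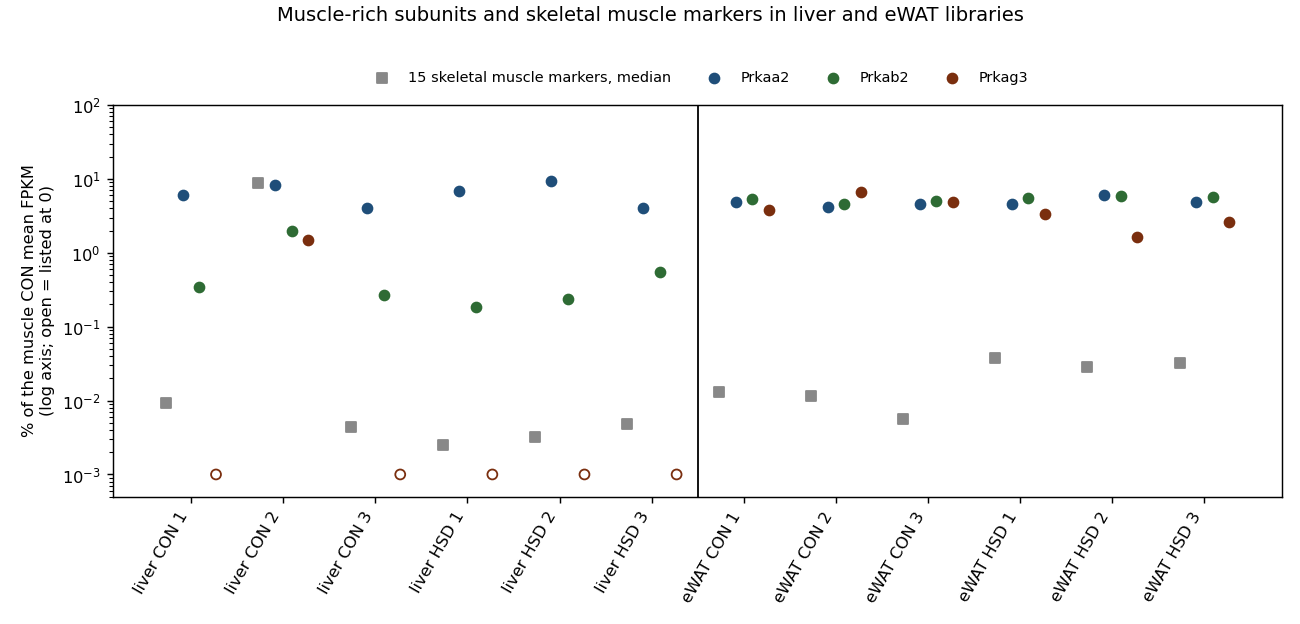
Prkaa2, Prkab2, Prkag3 (circles) and the median of 15 skeletal muscle markers (grey squares) in each liver and eWAT library, as a percentage of the CON muscle mean FPKM on a log axis, with open symbols for values listed at 0. The marker median reaches 8.79% in liver CON replicate 2 and stays at or below 0.0376% in every other library, while Prkaa2 lies between 4.03% and 9.43% in all 12.

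The question of the diet comparison is whether high salt changed AMPK or LKB1 transcripts in any tissue. No member was called in liver, eWAT or muscle by limma, where 0% of 10317, 0% of 13740 and 0.323% of 10834 genes were called. At an unadjusted p under 0.05 there were 0 of 7 members tested in liver (Prkag3 was below the mean of 0.5 FPKM), 1 of 8 in eWAT and 1 of 8 in muscle. The background was 5.74%, 16.7% and 16.3% of genes. CON and HSD did not overlap for 1 of 7 members in liver, 2 of 8 in eWAT and 1 of 8 in muscle, against 12.1%, 28.6% and 22.3% of genes. Over the members tested the log2 fold changes had medians of 0.15, 0.09 and -0.09 in the same order, and over all genes of 0.13, 0.08 and -0.06. The counts and medians of the members were thus near those of the genes at large.

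Prkag3 had the smallest p of the members in both muscle and eWAT. In muscle its mean was 39.4 ± 8.53 FPKM in HSD and 63.4 ± 9.86 FPKM in CON (SD, n = 3), and the highest HSD library (49.1 FPKM) lay below the lowest CON library (52.8 FPKM). The log2 fold change was -0.69 ± 0.17 (SE) with an adjusted p of 0.104, and Prkag3 ranked 304 of 10834 by p. With the replicate number as a block, a pairing that no label gives, the adjusted p in limma was 0.0191. No other alternative brought it under 0.05. Over all 18 alternatives it ran from 0.0191 to 0.364, and the change stayed smaller than the required fold. In eWAT the mean was 1.60 FPKM in HSD and 3.20 FPKM in CON, again without overlap, with a log2 fold change of -0.82 ± 0.27 and an adjusted p of 0.235 in limma. Without eWAT HSD replicate 2 the log2 fold change was -0.62. The 15 skeletal muscle markers summed to 30.04 to 47.0 FPKM in HSD and 9.45 to 19.2 FPKM in CON eWAT, higher in HSD without overlap where Prkag3 was lower, and their part was not tested. As a share of γ, Prkag3 was 93.0% in HSD and 95.4% in CON muscle, and 10.3% in HSD and 18.9% in CON eWAT. Prkag2 was 4.74% in HSD and 2.95% in CON muscle, and Prkag1 2.25% and 1.70%. These 4 comparisons of 15 did not overlap and each gave an exact permutation p of 0.1 (2-sided), the smallest that 3 against 3 libraries allow. The γ shares of a library sum to the whole, so the 3 in muscle are not separate observations, and Prkag2 itself was 1.96 FPKM in HSD and 1.92 FPKM in CON muscle.

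Some fibre type markers and the summed macrophage markers also differed between the muscle libraries of the diets, and the fast fibre markers did not move together. Of all genes tested in muscle, 22.3% did not overlap between the diets. Myh1 read 484, 321 and 312 FPKM in HSD and 865, 697 and 664 FPKM in CON, and Myh2 read 175, 132 and 108 FPKM in HSD and 262, 330 and 259 FPKM in CON. Both of these fast myosins were lower in HSD without overlap, while Myh4, Tnni2, Tnnt3, Actn3, Pvalb and Atp2a1 overlapped. The 8 fast fibre markers summed to 44402, 47205 and 49224.5 FPKM in HSD and to 41934, 38506 and 42590 FPKM in CON, so the sum was higher in HSD without overlap. The 6 slow fibre markers summed to 111, 138 and 176 FPKM in HSD and to 166, 370 and 276 FPKM in CON, with overlap. The 10 macrophage markers summed to 19.0 to 21.5 FPKM in HSD and 26.7 to 36.4 FPKM in CON. The part of these markers in the Prkag3 values was not tested.

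The other members differed less between diets. Prkaa2 in muscle was 44.8 ± 7.88 FPKM in HSD against 55.0 ± 3.60 FPKM in CON, with overlap (log2 fold change -0.30 ± 0.14, adjusted p 0.334 in limma). Stk11 in muscle was 30.8 ± 4.73 against 25.3 ± 2.11 FPKM, with overlap (0.27 ± 0.14, adjusted p 0.379 in limma). Prkab2 in eWAT had every HSD library above every CON library, at 6.88 ± 0.297 against 6.03 ± 0.441 FPKM (0.18 ± 0.09, adjusted p 0.384 in limma). In liver Prkag1 did not overlap, at 2.69, 1.99 and 1.88 FPKM in HSD against 1.45, 1.54 and 1.56 FPKM in CON, from 24 to 61 fragments. Its log2 fold change was 0.40 ± 0.20 with an adjusted p of 0.764 in limma (9.71e-05 with array weights, the lowest of 19 alternatives), and it was -0.04 with mitochondrially encoded genes left out. Prkab2 in liver was 0.392 ± 0.239 FPKM in HSD and 1.04 ± 1.17 FPKM in CON (-0.57 ± 0.51, adjusted p 0.767 in limma). Without CON replicate 2, which read 2.40 FPKM, its mean was below the filter of 0.5 FPKM and it could not be fitted. In eWAT, HSD replicate 2 had the lowest Prkaa1 (12.7 FPKM) and the highest Prkab1 (22.5 FPKM) of the 6 libraries. The Prkaa1 log2 fold change of -0.23 became 0.08 without that library.

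**Figure D4:**
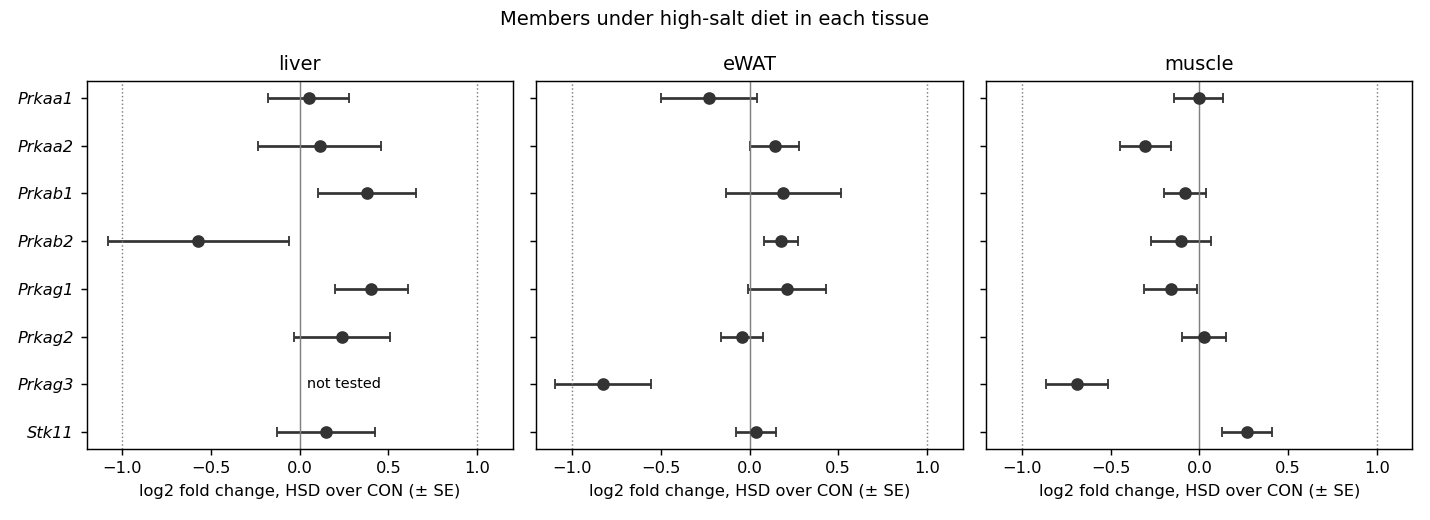
Points are limma log2 fold changes, HSD over CON, of each member in liver, eWAT and muscle with their SE, from 3 libraries a group, and dotted lines mark a log2 fold change of 1 in either direction. The lowest points are Prkag3 in eWAT (-0.82) and in muscle (-0.69), and no point passes a dotted line.

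The diet effects were next compared between tissues with interaction terms in the fit of all libraries. No member was called in any pair of tissues, the smallest adjusted p being 0.485, and 1 of 24 member tests had an unadjusted p under 0.05 (Prkag1, muscle against liver), as had 1054 of 13067 genes in that pair. Over all genes 0.0612% were called for muscle against liver, 0% for muscle against eWAT (1085 of 13067 at an unadjusted p under 0.05) and 0.773% for eWAT against liver (1815 at an unadjusted p under 0.05). The Prkag3 diet effect in muscle was 0.14 ± 0.47 log2 units above that in eWAT, which leaves both the same effect and a clearly different one within its error.

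On the deposited scale, the partners that hold LKB1 active varied more over the 3 tissues than Stk11 did. The tissue order of Stk11 depends on the scaling, and the partners are not given under other scalings, so this ranking may too. The MO25α gene Cab39 averaged 38.3 FPKM in CON muscle, 18.8 FPKM in CON eWAT and 5.98 FPKM in CON liver, and was called in all 3 contrasts. The STRADβ gene Stradb averaged 18.2, 5.23 and 3.52 FPKM in the same order and was called higher in muscle than in either tissue. The STRADα gene Strada was highest in eWAT with 3.71 FPKM, then muscle with 2.65 FPKM and liver with 1.05 FPKM, and muscle and eWAT each were called above liver. Cab39l, the MO25β gene, averaged 10.2 FPKM in CON eWAT, 4.91 FPKM in muscle and 3.15 FPKM in liver, called only between eWAT and liver. Of these pairs, Cab39 and Stradb had the higher CON mean in all 3 tissues, and by the widest ratio in muscle. Camkk2, the other kinase of the α subunit, averaged 3.64 FPKM in CON eWAT and only 0.555 FPKM in liver and 0.498 FPKM in muscle, and was called higher in eWAT than in both. None of the 4 partners was called by diet in any tissue, and their smallest adjusted p in limma was 0.248 (Strada in eWAT).

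The wider pathway lists held 48 genes in 5 lists (the LKB1 partners, other AMPK kinases, AMPK-related kinases that LKB1 also activates, modulators of AMPK and AMPK substrates). Of 45 tested between tissues, 19 were called higher and 6 lower in CON muscle than in CON liver, 6 higher and 15 lower in muscle than in eWAT, and 32 higher and 1 lower in eWAT than in liver. Over all 13067 genes 48.4%, 53.3% and 67.4% were called, with the splits into higher and lower given above, which median-ratio scaling made nearly even. The medians of these log2 fold changes were 0.81, -0.76 and 1.54 beside the all-gene values of 0.48, -0.91 and 1.33. Among substrates, Gys1 (muscle glycogen synthase) was 84.9 FPKM in CON muscle, 30.8 FPKM in eWAT and 3.36 FPKM in liver. The liver mean rests mostly on CON replicate 2, the library with muscle markers (1.04, 8.73 and 0.320 FPKM in order of replicate). Gys2 (liver glycogen synthase) was 40.3 FPKM in CON liver, 4.45 FPKM in eWAT and 0.207 FPKM in muscle. The acetyl-CoA carboxylase gene Acaca was highest in eWAT (52.8 FPKM, against 3.81 FPKM in liver and 1.91 FPKM in muscle). Its mitochondrial counterpart Acacb was highest in muscle (32.8 FPKM, against 17.4 FPKM in eWAT and 5.99 FPKM in liver). Of the AMPK-related kinases, 9 of 10 tested were called higher in eWAT than in liver, where 67.4% of all genes were called with a median of 1.33, among them Sik2 (log2 fold change 5.28), Snrk (2.95) and Nuak1 (2.95). Between muscle and eWAT, 5 of the 10 were called, all lower in muscle, with Sik2 at -3.92.

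Other called genes of these lists are given by contrast, each with its log2 fold change on the deposited scale. Their values under other scalings are not given. Over all genes tested the medians were 0.48 from liver to muscle, -0.91 from eWAT to muscle and 1.33 from liver to eWAT. The liver to eWAT values of Mark4, Rptor, Map3k7, Sik3, Mark3 and Foxo3 lay below that of the median gene. The CON liver means of Ak1 and Gys1 rest mostly on replicate 2, the library with muscle markers. From liver to muscle the substrates Pfkfb3 (5.74), Gys1 (5.23), Tbc1d4 (2.90), Eef2k (2.85), Tbc1d1 (2.73), Acacb (2.35), Mff (2.21), Ppargc1a (2.20) and Tsc2 (1.35) were higher, and Gys2 (-5.83) and Srebf1 (-1.43) were lower. Ak1, the adenylate kinase that forms AMP from ADP, was higher in muscle by 7.32, as were Sesn1 (1.85), Ppm1a (1.76), Sesn3 (1.26), Map3k7 (1.47), Nuak1 (2.19) and Sik2 (1.36), while Sesn2 (-1.43), Fnip2 (-1.22) and Nuak2 (-1.30) were lower. From eWAT to muscle Ak1 (6.24), Ppargc1a (2.02), Gys1 (1.45) and Fnip1 (1.11) were higher. Lipe, the hormone-sensitive lipase (-6.04), Acaca (-4.46), Sesn2 (-3.45), Gys2 (-2.73), Srebf1 (-2.22), Snrk (-2.14), Camkk2 (-2.06), Sik1 (-1.81), Crtc2 (-1.43), Nuak2 (-1.41), Fnip2 (-1.39), Camkk1 (-1.32) and Mark2 (-1.21) were lower. Muscle thus stood highest for Ak1 and eWAT for Lipe and Acaca. From liver to eWAT the substrates Lipe (7.01), Pfkfb3 (6.15), Gys1 (3.78), Acaca (3.61), Tbc1d4 (3.26), Eef2k (2.25), Tbc1d1 (2.23), Tsc2 (1.85), Txnip (1.62), Mff (1.49), Acacb (1.46), Rptor (1.15) and Foxo3 (1.03) were higher and Gys2 (-3.10) was lower. The modulators Sesn1 (2.75), Sesn2 (2.03), Ppm1a (1.58) and Sesn3 (3.47 against 0.488 FPKM), the kinases Camkk2 (1.97), Camkk1 (1.85) and Map3k7 (1.09), and the AMPK-related kinases Mark2 (1.73), Sik1 (1.72), Mark1 (1.54), Mark4 (1.18), Sik3 (1.08) and Mark3 (1.03) were also higher in eWAT.

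No gene of the 5 lists was called by diet in any tissue, with smallest adjusted p of 0.0918 in liver, 0.120 in eWAT and 0.104 in muscle in limma. The paper, which used another method (DESeq2), listed Acaca as lower in HSD in both liver and eWAT. It also reported AMPK signaling among the pathways lowered in HSD liver. At an unadjusted p under 0.05, 2 were higher and 2 lower in HSD of 40 tested in liver, 4 higher and 2 lower of 47 in eWAT, and 3 higher and 3 lower of 41 in muscle, beside 5.74%, 16.7% and 16.3% of all genes. In liver Acacb read 0.319, 0.390 and 0.838 FPKM in HSD against 6.38, 6.49 and 5.10 FPKM in CON, a log2 fold change of -2.70 ± 0.25 (adjusted p 0.0918 in limma, 1.29e-06 to 0.991 over its 19 alternatives). The liver values of Ak1 and Gys1, the next lowest fold changes, rested on CON replicate 2 with 42.7 and 8.73 FPKM against at most 0.541 and 1.04 FPKM in the other 5. The largest positive values in liver were those of Nuak2 (0.84 ± 0.34), Gys2 (0.61 ± 0.36) and Cab39l (0.54 ± 0.43). In eWAT Acaca read 16.2, 9.69 and 21.4 FPKM in HSD against 43.2, 51.9 and 63.1 FPKM in CON (-1.76 ± 0.30, adjusted p 0.120 in limma). Gys2 was 0.762 FPKM in HSD and 4.45 FPKM in CON eWAT (-2.04 ± 0.52) and Pfkfb3 95.5 and 131 FPKM (-0.57 ± 0.38). Hepatocyte markers differed between the same libraries: 2 to 5 of 12 reached 1 FPKM in HSD and 9 to 12 in CON, with Alb at 7.85, 3.30 and 5.87 FPKM in HSD and 108, 167 and 53.9 FPKM in CON. Their summed level overlapped, at 671 to 2577 FPKM in HSD and 1119 to 1625 FPKM in CON, but most of it was Cyp2e1. Cyp2e1 read 2131, 664 and 2567 FPKM in HSD and 1402, 942 and 990 FPKM in CON. Each of the other hepatocyte markers was lower in HSD without overlap. The part of these markers in the Gys2 values was not tested. The largest positive values in eWAT were Tbc1d1 (0.75 ± 0.58), Pfkfb2 (0.70 ± 0.29) and Flcn (0.70 ± 0.17). In muscle Pfkfb3, which makes the activator of phosphofructokinase, read 45.1, 73.8 and 60.5 FPKM in HSD against 98.3, 114 and 84.5 FPKM in CON (-0.74 ± 0.19, adjusted p 0.104 in limma and 0.0313 with the replicate block, 0.0313 to 0.376 over 18 alternatives). Sik1 (-0.57 ± 0.18) and Acaca (-0.35 ± 0.17) followed, and Nuak1 (0.58 ± 0.20), Lipe (0.38 ± 0.23) and Tbc1d1 (0.36 ± 0.16) had the largest positive values.

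**Figure D5:**
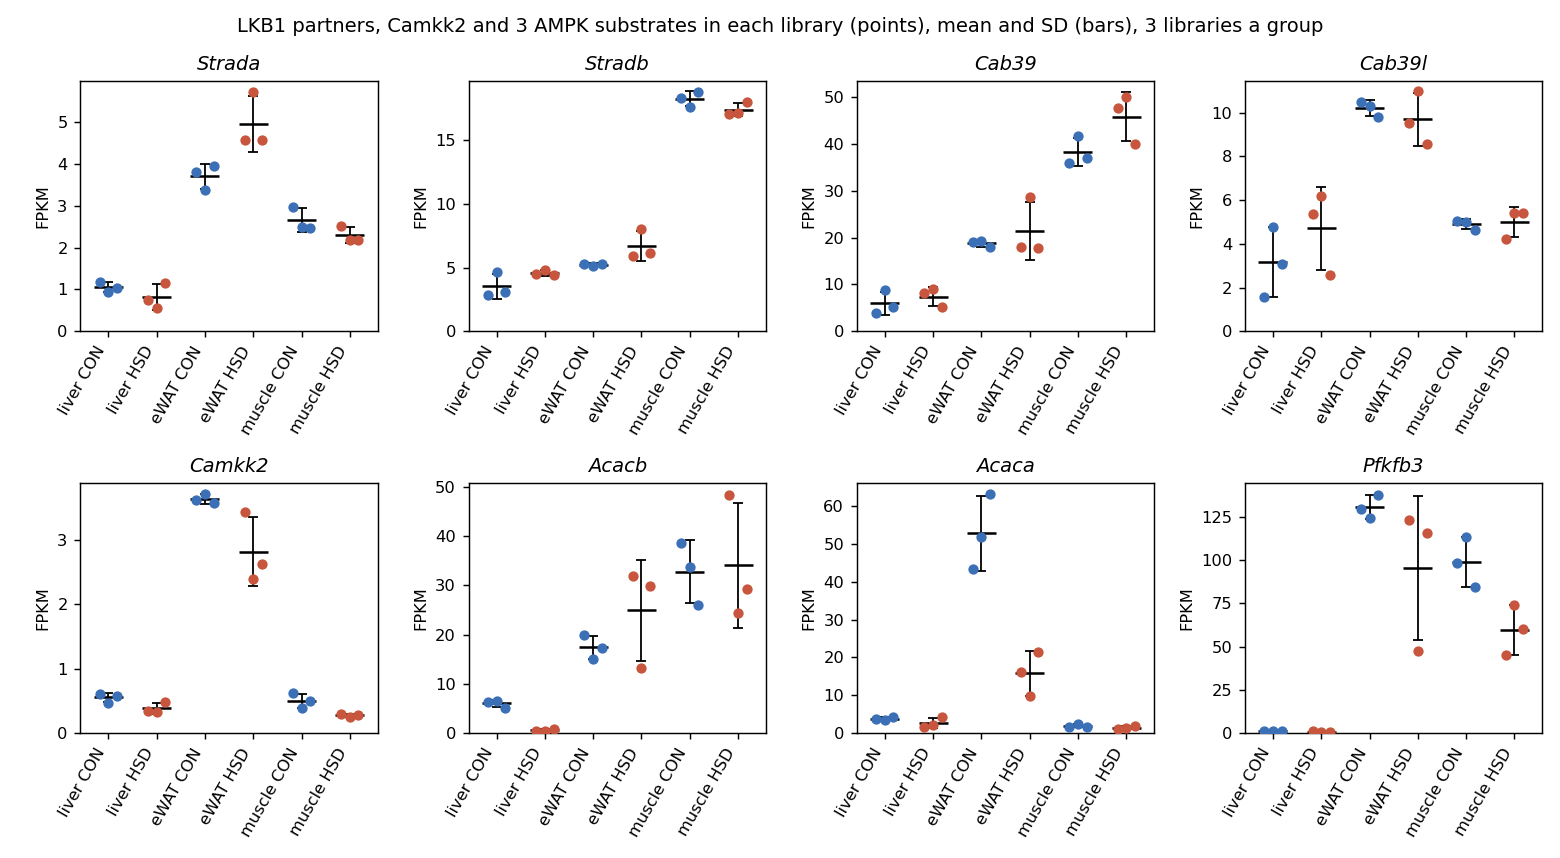
FPKM of the LKB1 partners Strada, Stradb, Cab39 and Cab39l, of Camkk2 and of the AMPK substrates Acacb, Acaca and Pfkfb3, on linear axes from 0, with 1 point per library (blue CON, red HSD) and a bar at the mean ± SD of 3 libraries. Cab39 and Stradb are highest in muscle, Camkk2 and Acaca in eWAT, and the 3 HSD liver points of Acacb (at most 0.838 FPKM) lie below the 3 CON points (at least 5.10 FPKM).

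The genes whose profile was most like that of each member were ranked by Pearson's r of log2(FPKM + 0.5) over the 18 libraries, which fall into 3 tissues, so that r mostly describes the tissue levels. For Prkag3 these were Phkg1, the catalytic subunit of muscle phosphorylase kinase (r = 0.995), Reep1 (0.990) and Ptx3 (0.990). For Prkab2 they were Kif3c (0.996), Cdnf (0.995) and Ipo13 (0.995), and for Prkaa2 they were Mlip (0.989), Lingo3 (0.988) and St8sia5 (0.988). In all 255 genes passed 0.95 with Prkag3, 350 with Prkab2 and 216 with Prkaa2, so the muscle pattern was common. Prkaa1 was most like Map4k4 (0.993), Zeb2 (0.992) and Jag1 (0.992), and Prkag2 most like Pbx2 (0.996) and Tnks1bp1 (0.992). Prkab1 was closest to Mogs (0.973), Neu1 (0.970) and Txndc11 (0.970). Prkag1 had no gene above 0.95, with Ogfod2 (0.916), Fzd8 (0.915) and Tbccd1 (0.914) nearest. Stk11 had none either, with Hsd17b14 (0.874), Npepl1 (0.863) and Bap1 (0.861) nearest.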

How the data were processed

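Liver, eWAT and quadriceps muscle of male C57BL/6 mice were profiled by stranded, rRNA-depleted total RNA sequencing. The authors aligned reads to mm10 with HISAT2 and deposited FPKM per gene; HTSeq and mm9 also stand in the submitters' processing notes, and the annotation release and the strand setting are not given in the sources used here. Values were used as deposited, and all 18 columns were matched to samples by name (0 were not).

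Genes with a mean of at least 0.5 FPKM over the fitted libraries were tested on log2(FPKM + 0.5) with limma 3.58.1 in R 4.3.3 (trended eBayes, Benjamini-Hochberg adjustment over all genes tested). Diets were compared within each tissue, and tissues and differences of diet effects in a fit of all 18 libraries with mouse as a random block, mouse being read from the titles. A fold change on this scale understates that of low genes. Whole fragments were recovered from the FPKM with exon lengths (97.5% of genes above 0 were whole within 0.05 in all libraries), and gene positions came from the GRCm38 annotation. Isoform shares were compared with exact permutation tests. Tests were checked on simulated data, where 97.5%, 98.5%, 97.0% and 98.0% of 200 changed genes were recovered in the liver, eWAT, muscle and joint fits. The planted changes were larger than the fold required for a call, and their spread was set rather than taken from these libraries. These shares therefore do not tell how many real diet changes the fits would find.

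The members and gene lists were chosen with earlier results of these data known. Named from the lists were every gene called, the LKB1 partners and Camkk2, the 3 largest rises and falls per diet comparison, and the 3 genes most like each member. Of the genes this rule names, 2 are not reported here. Same-numbered muscle libraries deviated together (r = 0.383, 0.177 and 0.184, all over 0.1), so the replicate number was used as a block in 1 alternative. No label pairs the mice. Different-numbered muscle libraries had r from -0.347 to 0.180, so their range reached that of the same-numbered ones and the pairing is not established. Alternatives were other pseudocounts, filters, scalings, weights, voom on recovered fragments, the replicate block, the 15 libraries of the study's library table, and each library left out. Replicates are separate mice.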

Additional observations from a re-analysis of the deposited data

Results flagged for a closer look

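No difference of diet effects between tissues was called for an AMPK subunit or Stk11. Among the pathway genes 3 were, in the limma fit of all libraries, with Benjamini-Hochberg adjusted p. The diet effect on Acacb was higher by 2.72 ± 0.45 (SE, log2) in muscle than in liver (adjusted p 0.0372) and by 3.13 ± 0.45 in eWAT than in liver (adjusted p 0.00490). The diet effect on Gys2 was -2.64 ± 0.52 in eWAT relative to liver (adjusted p 0.0283). Of 12 hepatocyte markers, 2 to 5 reached 1 FPKM in HSD eWAT and 9 to 12 in CON eWAT, and their part in the Gys2 value was not tested. The Acacb difference between muscle and liver was called under 14 of 32 alternatives, that between eWAT and liver under 32 of 32 and that of Gys2 under 20 of 32. These contrasts share the liver libraries. Groups of 3 libraries were not tested for single outlying samples.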

How the results depend on the processing

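Of 22 log2 fold changes of members (the 13 called between CON tissues and 9 between diets) with 581 alternative values, 568 kept their direction and side of the call rule, 8 lost the call, 0 gained one and 5 reversed. Members not called between tissues are not among the 22: with scaling some gained a call or turned, as given with the tissue contrasts. The cause was not tested for any of these. Reversed were Prkaa1 between diets in eWAT (0.0495 with array weights, and from -0.418 to 0.0796 with each library left out, the highest without eWAT HSD replicate 2), Prkag1 in eWAT (-0.00488 with quantile normalization, -0.00249 with array weights) and Prkag1 in liver (-0.0435 with mitochondrially encoded genes left out). Members called between CON muscle and CON liver rose from 3 to 5 with median-ratio scaling or without mitochondrially encoded genes, and to 6 with voom on median-ratio sizes or by adjusted p alone. Between CON eWAT and CON liver they rose from 4 to 7 with voom on median-ratio sizes. Isoform shares that passed the test between tissues went from 15 to 0 within CON or HSD alone, where the exact permutation test of 3 against 3 libraries cannot go below p = 0.1. Shares without overlap between diets went from 4 to 8 with the 15 libraries of the study's table. That set leaves out liver CON replicate 2, the library with muscle markers, liver HSD replicate 3 and eWAT HSD replicate 3. Its groups are also smaller, and the part of each was not tested. With the replicate block 0 members were called between diets in any tissue, as in the main fits. In liver (r = -0.473, 0.396 and -0.213) and eWAT (-0.197, 0.061 and 0.414) same-numbered libraries did not all deviate together. Over all genes, calls between diets ran from 0 to 926 in liver (926 with array weights, 0 as reported), from 0 to 220 in eWAT (220 with array weights) and from 4 (no filter) to 66 (voom) in muscle, where 35 were reported. The differences of diet effects ran from 1 to 1288 for muscle against liver (8 reported), 0 to 366 for muscle against eWAT (0 reported) and 5 to 2455 for eWAT against liver (101 reported). The 1288 and 2455 came with the 15 libraries of the study's table, and the 366 with array weights. Whether the libraries left out of that table caused the higher counts was not tested. Calls between CON eWAT and CON liver went from 8812 to 5218 with median-ratio scaling.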
